A study of Mus musculus with 4 samples.

Results

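The laminins and nidogens followed here were 10 genes of the basement membrane, namely the laminin α chains Lama1, Lama2, Lama4 and Lama5, the β chains Lamb1 and Lamb2, the γ chains Lamc1 and Lamc3, and the nidogens Nid1 and Nid2. They were matched by gene symbol among the 32285 genes of the count matrices, and each symbol matched 1 gene. Leg muscles of late-gestation mouse fetuses had been dissociated with trypsin and DNase I, strained, and run through a droplet system that tags the 3′ end of every captured mRNA with a code for its cell and a code for the molecule, so that molecules (UMIs) can be counted per gene and cell. There were 2 wild-type (WT) libraries, WT1 and WT2, and 2 knockout (KO) libraries, KO1 and KO2, from fetuses labelled as knockouts of SYISL. SYISL is a lncRNA whose name refers to Synpo2, the gene it lies in. WT and KO fetuses were littermates from heterozygous matings, genotyped from their tails, and no other allele, treatment or strain was named. The number of fetuses in each library and their sex were not stated. The level of SYISL itself was not analysed here, so the genotypes are as labelled.

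Laminins are cross-shaped proteins built from an α, a β and a γ chain that polymerise into a sheet on the cell surface. Nidogens bind the γ chain and link that sheet to the collagen IV network, while integrins and dystroglycan anchor it to the cell. In skeletal muscle, the α2 chain encoded by Lama2 dominates the sheath of each fibre, and its loss causes a congenital muscular dystrophy. Vessels carry mainly α4 and α5, and peripheral nerves carry α2 and α4 around Schwann cells.

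After filtering, 36969 cells were kept, with 8515 in WT1, 8177 in WT2, 9816 in KO1 and 10461 in KO2, and their median depth ran from 9118 to 11427 UMIs per cell. Clustering was done without the 10 genes, and clusters were named only from marker genes. The 9 classes used in all comparisons held 18845 fibro-adipogenic progenitor-like (FAP-like) cells, 6729 myogenic-like cells, 2289 chondrocyte-like cells, 2100 tenocyte-like cells, 1830 glial-like cells, 1748 smooth muscle or pericyte-like cells, 1342 endothelial-like cells, 1115 macrophage-like cells and 286 mast-like cells. A further 214 neutrophil-like cells were too few in the KO libraries to test, and 471 cells had no name. Between 21 and 41 barcodes were shared by each pair of libraries. KO2 stood apart in sex-linked transcripts, with Xist in 98.2% of its cells and Y-linked transcripts in 1.00% of them, against 85.8% to 89.9% of the cells of each other library. The 10 genes had 557532 UMIs among them, 0.140% of all UMIs in the kept cells.

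Levels below are in CPM, the UMIs of a gene per 1000000 UMIs of a class, and a mean given with its SD is over the 4 libraries. They compare 1 gene between classes and not different genes with each other, because a 3′ library captures transcripts with unequal efficiency. Differences between classes are descriptions without a test, since the classes came from the same cells.

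Each major chain had its own order of cell classes. Glial-like cells held the highest mean level of Lama2, Lama4, Lamb1, Lamc1 and Nid2, FAP-like cells that of Nid1, myogenic-like cells that of Lama5, and chondrocyte-like cells that of Lamb2. Lama1 and Lamc3 were close to absent, with 348 and 94 UMIs in all kept cells.

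**Figure D1:**
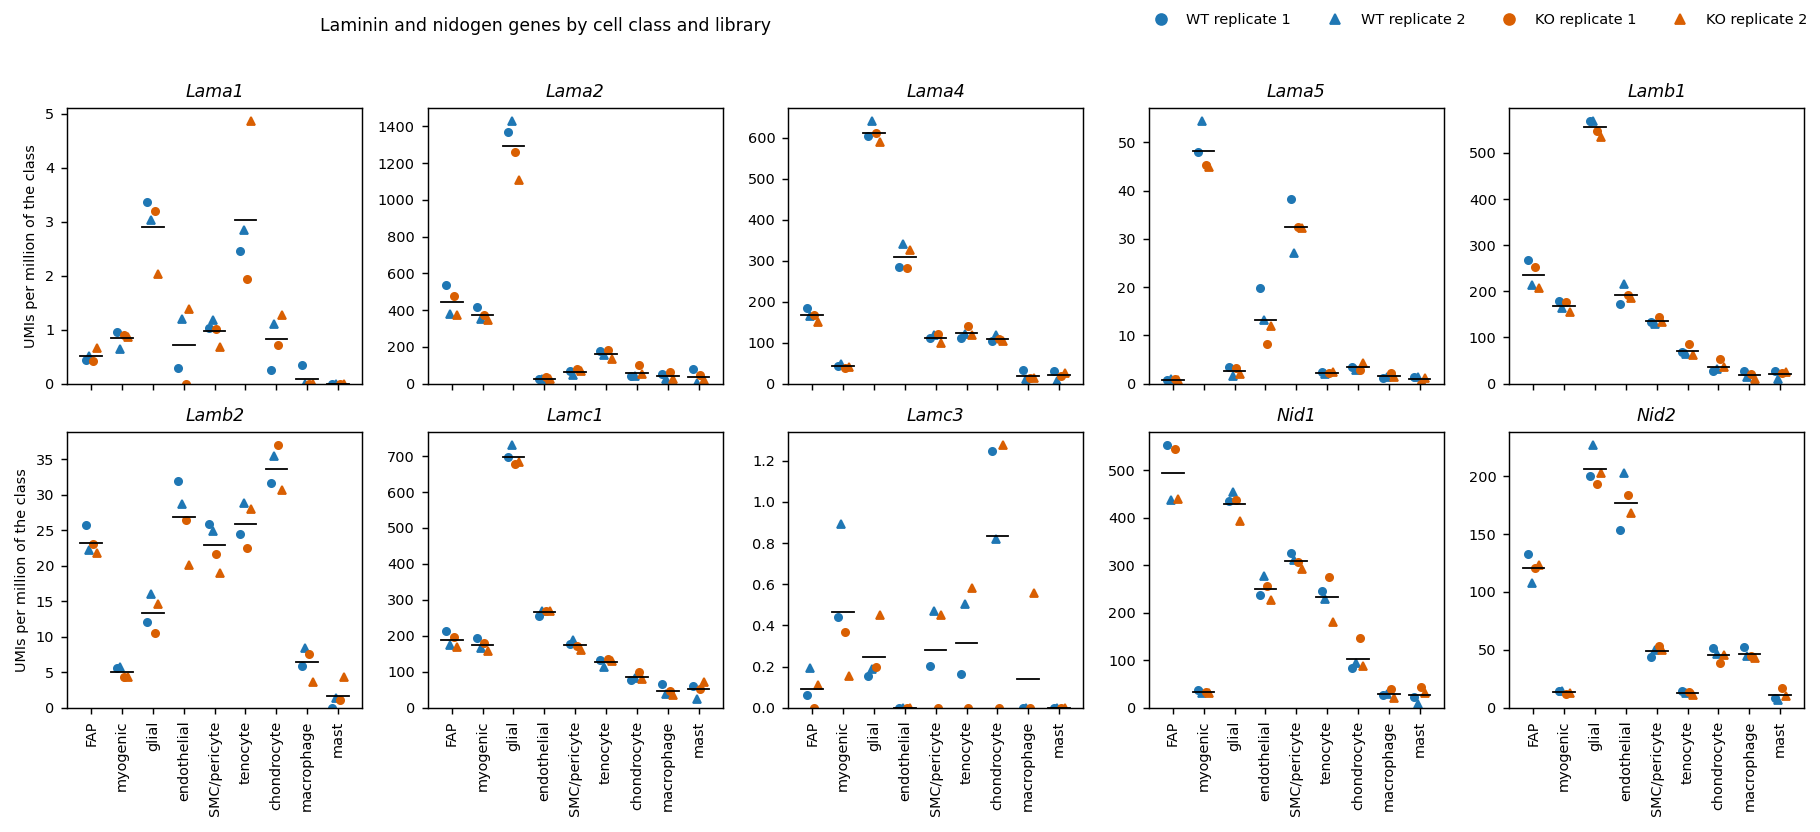
Level of each of the 10 genes in 9 cell classes, in CPM (vertical axis, a separate linear scale for each gene). Each point is 1 library (WT blue, KO orange, circles replicate 1, triangles replicate 2) and the black line is the mean of the 4 libraries. Lama2 reached 1107 to 1430 in glial-like cells, Nid1 437 to 553 in FAP-like cells and Lama5 44.9 to 54.4 in myogenic-like cells.

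Among the α chains, Lama2 (chr10:26980036-27619758 on the minus strand, GRCm38) was highest in glial-like cells, at 1368 CPM in WT1, 1430 in WT2, 1261 in KO1 and 1107 in KO2. FAP-like cells followed at 537, 380, 478 and 370 in the same order of libraries, and myogenic-like cells at 419, 354, 373 and 343. Every glial-like value lay above every FAP-like value, and the means differed 2.93-fold, whereas the FAP-like and myogenic-like ranges overlapped even though FAP-like cells were the higher in 4 of 4 libraries. By total amount the order was another, since FAP-like cells were far more numerous. They held 58.8% of all Lama2 UMIs, glial-like cells 18.0% and myogenic-like cells 16.9%. Tenocyte-like cells had 162 ± 21.1 and chondrocyte-like cells 58.7 ± 28.6, and in the latter KO1 stood at 101 while the other libraries lay between 40.9 and 50.4. With every cell thinned to 2000 UMIs, a Lama2 UMI was seen in 78.0% of glial-like cells of WT1 (95% Clopper-Pearson interval 74.3% to 81.4%), 77.3% of WT2, 72.8% of KO1 and 70.5% of KO2. Such intervals cover counting error only. The matching share was 2.38% to 5.00% in macrophage-like cells and 3.39% to 8.33% in neutrophil-like cells. These immune classes were taken to lack the chain. The neutrophil-like level was 248, 17.9, 97.4 and 151 CPM in WT1, WT2, KO1 and KO2, from 104, 60, 25 and 25 cells. Neutrophil-like cells also held Col1a1, a FAP marker, at 2237, 1455, 5650 and 1765 CPM in the same order of libraries. The part of FAP transcripts in their Lama2 values was not tested.

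Lama2 was low in vascular classes, and much of what was counted there came from small groups of cells that also carried FAP markers. Endothelial-like cells had 21.9 to 35.8 and smooth muscle or pericyte-like cells 64.2 ± 12.7. Subclustering of the endothelial-like class gave a part of 132 cells with 10 of the FAP markers, a median of 17524 UMIs per cell and Lama2 at 127 ± 30.5, and the smooth muscle or pericyte-like class had a similar part of 126 cells with Lama2 at 277 ± 70.7. When parts with markers of another class were left out, an alternative chosen after seeing the data, endothelial-like Lama2 was 3.65, 5.08, 6.79 and 4.14 in WT1, WT2, KO1 and KO2. Smooth muscle or pericyte-like Lama2 was then 36.7, 37.9, 26.5 and 41.6. Glial-like Lama2 was slightly higher than before, with a mean of 1333.

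Within glial-like cells, Lama2 was far from even. The part led by Abca8b and Abca8a (162 cells) had 2214, 2417, 2418 and 2291 CPM in WT1, WT2, KO1 and KO2. Cells with markers of myelinating Schwann cells (231 cells) had 1282 ± 169. A part led by Syt1, Gpr17 and Lypd6 (314 cells) had only 231, 291, 224 and 149, below the other glial-like parts in every library. Lama4 was 504 ± 32.1 in that same part, against 611 ± 22.1 in the whole class.

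Lama4 (chr10:38965515-39110188, plus strand), the α chain that is typical of vessel walls, was highest in glial-like cells at 603, 641, 611 and 589 in WT1, WT2, KO1 and KO2. Endothelial-like cells came next at 284, 341, 281 and 325, and FAP-like cells after them at 185, 164, 167 and 149. These 3 classes did not overlap, and their means stepped down 1.98-fold and 1.85-fold. Tenocyte-like cells (123 ± 12.4), smooth muscle or pericyte-like cells (112 ± 10.2) and chondrocyte-like cells (108 ± 7.05) could not be ordered by their ranges. Myogenic-like cells had 42.0 ± 4.18. Inside the smooth muscle or pericyte-like class, the part with pericyte markers (575 cells) had 151 ± 11.9, while a part with vascular smooth muscle markers led by P2rx1 (194 cells) averaged 64.7. A Lama4 UMI was seen in a mean of 64.3% of thinned glial-like cells and 37.6% of endothelial-like cells, against 2.35% of macrophage-like cells.

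Lama5 (chr2:180176373-180225859, minus strand), the α chain of mature vessels, epithelia and the neuromuscular synapse, had a different layout. Myogenic-like cells led with 48.0, 54.4, 45.3 and 44.9 in WT1, WT2, KO1 and KO2 and held 71.7% of its UMIs. Smooth muscle or pericyte-like cells had 38.2, 27.1, 32.4 and 32.3, and endothelial-like cells 19.9, 13.2, 8.13 and 11.8. These 3 classes did not overlap, and every other class of the 9 averaged 3.34 or less, with FAP-like cells at 0.804 ± 0.083. Thinned to 2000 UMIs, 8.53% to 10.8% of myogenic-like cells held a Lama5 UMI, against at most 0.357% of macrophage-like cells.

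The vascular Lama5 signal was uneven between parts. Endothelial-like cells with arterial markers (200 cells) had 74.3, 51.6, 32.5 and 43.4, and the largest other endothelial-like part (548 cells) had 6.08 ± 2.06. The P2rx1-led vascular smooth muscle part had 167, 113, 129 and 143, the pericyte part had 3.96, 2.26, 1.60 and 2.51, and an unnamed part of 370 cells led by Grp had 41.1 ± 3.62. Lama4 ran the other way, at 214 ± 50.4 in arterial endothelial-like cells and 361 ± 39.2 in the larger endothelial-like part. Lama3, an α chain that is not among the 10 genes, was at 238 ± 53.5 in arterial endothelial-like cells, 14.2 in the larger endothelial-like part and 102 ± 18.7 in a separate vascular smooth muscle part of 227 cells where Lama5 averaged 18.0.

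**Figure D2:**
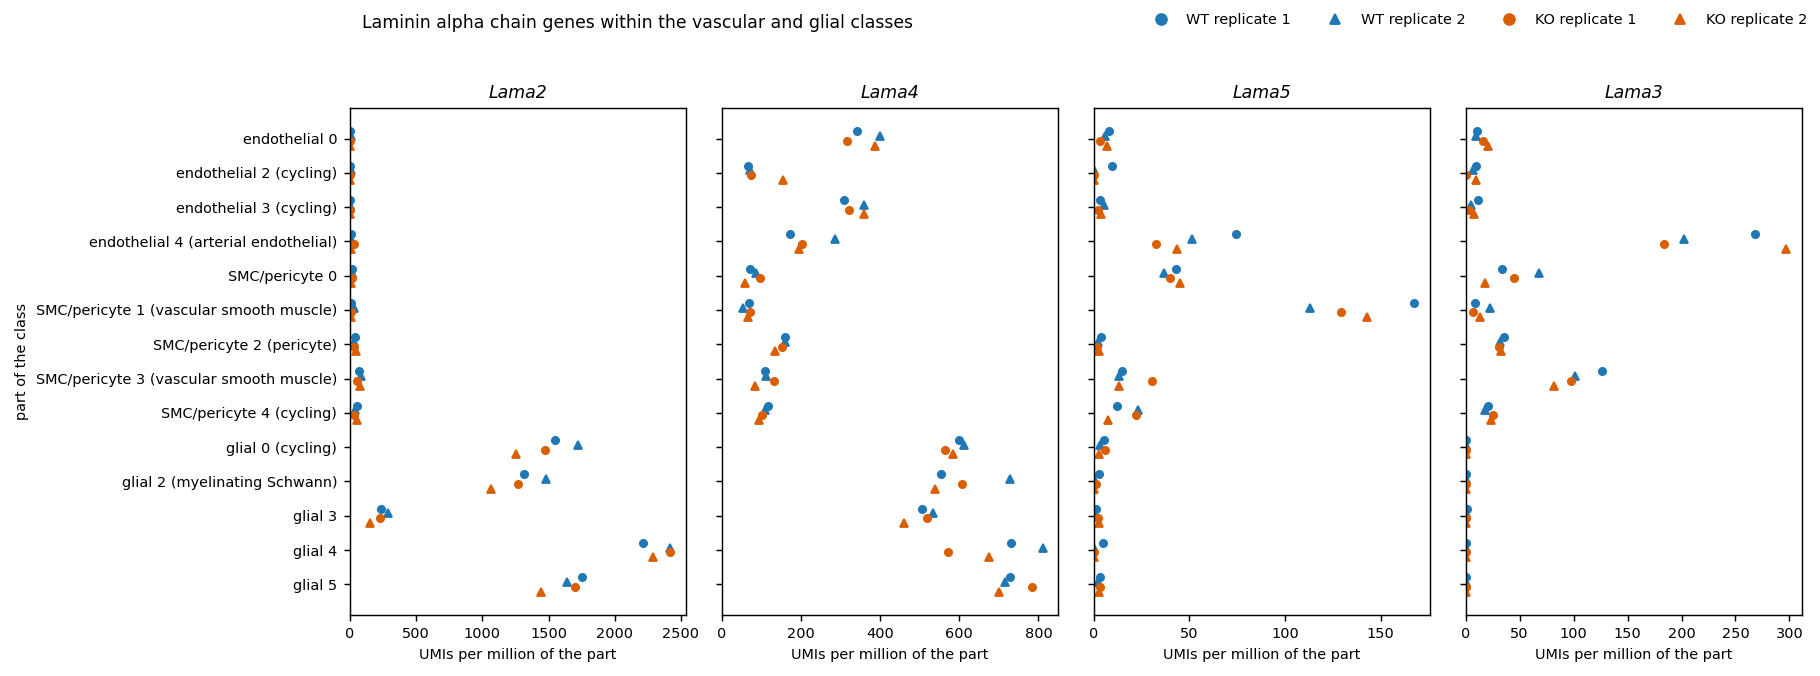
Levels of 4 laminin α chains (Lama2, Lama4, Lama5 and, for comparison, Lama3) in parts of the endothelial-like, smooth muscle or pericyte-like and glial-like classes, in CPM, here per 1000000 UMIs of the part. Points are libraries and parts with markers of another class are left out. Lama5 reached 113 to 167 in 1 vascular smooth muscle part and 1.60 to 3.96 in pericytes, while Lama2 ran from 149 to 291 in 1 glial-like part and from 2214 to 2418 in another.

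Lama1 (chr17:67697259-67822647, plus strand), the α chain of the earliest embryonic basement membranes, was barely detected. Tenocyte-like cells had 2.46, 2.85, 1.93 and 4.86 and glial-like cells 3.36, 3.03, 3.20 and 2.03, ranges that overlapped. Glial-like cells exceeded the next class, smooth muscle or pericyte-like cells, 2.99-fold. The myelinating Schwann part had 5.08, 8.33, 11 and 6.14.

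Of the β chains, Lamb1 (chr12:31265234-31329644, plus strand) is the common partner in fetal tissue. It was 570, 569, 548 and 534 in glial-like cells of WT1, WT2, KO1 and KO2, 2.36-fold above FAP-like cells (267, 214, 253 and 206) by the means. Endothelial-like cells (192 ± 17.8) and myogenic-like cells (169 ± 11.7) followed, and smooth muscle or pericyte-like cells had 135 ± 6.26. Tenocyte-like cells averaged 69.9 and chondrocyte-like cells 36.6 ± 11.6.

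Lamb2 (chr9:108479736-108490530, plus strand), the β chain known from the neuromuscular synapse, the kidney filter and arterial smooth muscle, was spread over many classes at a low level. Chondrocyte-like cells had 31.7, 35.4, 37.0 and 30.6 and endothelial-like cells 32.0, 28.8, 26.5 and 20.1. Tenocyte-like (26.0 ± 3.00), FAP-like (23.3 ± 1.78) and smooth muscle or pericyte-like cells (22.9 ± 3.14) overlapped one another. Chondrocyte-like values lay above all values of these last 3 classes and overlapped those of endothelial-like cells. Glial-like cells, highest for Lamb1, had only 13.4 ± 2.48, and myogenic-like cells 5.02 ± 0.801. Inside the vascular classes Lamb2 was higher in the same parts as Lama5, at 62.8 ± 15.2 in the P2rx1-led vascular smooth muscle part and 55.2 ± 19.0 in arterial endothelial-like cells.

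Lamc1 (chr1:153218922-153332786, minus strand) encodes the γ chain of nearly all laminins. Its glial-like level was 697, 732, 678 and 684 in WT1, WT2, KO1 and KO2, and its endothelial-like level was 254, 270, 269 and 268, which the glial-like mean exceeded 2.63-fold. FAP-like cells (188 ± 20.6), smooth muscle or pericyte-like cells (175 ± 11.8) and myogenic-like cells (174 ± 15.7) were alike within their spread. Macrophage-like cells still had 46.9 ± 12.9 and mast-like cells 52.1 ± 19.7. The share of thinned cells with a Lamc1 UMI averaged 71.7% in glial-like cells.

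Lamc3 (chr2:31887291-31946539, plus strand), a γ chain better known from brain surface, retina and testis, had 94 UMIs in all. Its highest mean was in chondrocyte-like cells, at 1.25, 0.820, 0 and 1.28, followed by myogenic-like cells at 0.464 ± 0.311. The loop by which the γ1 chain holds nidogen, the contact between the laminin and nidogen members of this family, is shown for both γ chains to let their sequences be compared. The coding bases below come from exon 14 of each gene (GRCm38), are read on the strand of the gene, and have the loop in capitals. They lie at chr1:153243340-153243402 on the minus strand for Lamc1 and chr2:31920577-31920639 on the plus strand for Lamc3.
Lamc1: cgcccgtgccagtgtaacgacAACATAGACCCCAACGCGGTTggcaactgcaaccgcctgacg
Lamc3: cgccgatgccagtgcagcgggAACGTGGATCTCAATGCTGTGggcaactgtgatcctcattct
The loops, residues 831 to 837 of the Lamc1 protein and 827 to 833 of the Lamc3 protein, were identical at 5 of 7 residues and 14 of 21 bases. Over the whole proteins of 1607 and 1581 residues the identity was 44.2%.

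The nidogens did not share the class order of Lamc1. Nid1 (chr13:13437551-13512269, plus strand) was highest in FAP-like cells, at 553, 437, 544 and 439 in WT1, WT2, KO1 and KO2, and these cells held 77.1% of its UMIs. Glial-like cells had 434, 454, 436 and 393, so the ranges overlapped. Smooth muscle or pericyte-like cells (309 ± 14.1), endothelial-like cells (226 to 276) and tenocyte-like cells (233 ± 39.4) were lower. Myogenic-like cells had 36.4, 31.4, 33.6 and 30.3, which overlapped the macrophage-like (28.7 ± 7.85) and mast-like (26.5 ± 15.2) values. A Nid1 UMI was found in 54.1% to 64.4% of thinned FAP-like cells, 5.79% to 8.20% of thinned myogenic-like cells and 3.14% to 5.00% of thinned macrophage-like cells.

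Nid2 (chr14:19751265-19811787, plus strand), the second nidogen, was higher in glial-like cells (200, 227, 194 and 203) than in endothelial-like cells (153, 203, 184 and 168) in 4 of 4 libraries, with overlapping ranges. FAP-like cells had 133, 107, 121 and 123. Macrophage-like cells had 46.4 ± 4.30, close to smooth muscle or pericyte-like cells (mean 49.2), while myogenic-like (13.4 ± 1.29) and tenocyte-like cells (12.9 ± 1.51) were low. Tenocyte-like cells, in which Nid1 exceeded 180 in every library, thus ranked near the bottom for Nid2.

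How much nidogen RNA stood beside γ chain RNA differed more between classes than between libraries. Nid1 UMIs per Lamc1 UMI averaged 2.62 in FAP-like cells (2.52 to 2.77 over libraries), 1.82 in tenocyte-like, 1.77 in smooth muscle or pericyte-like, 0.939 in endothelial-like, 0.615 in glial-like and 0.190 in myogenic-like cells (0.187 to 0.193). The absolute size of such a ratio depends on how well each transcript is captured, so only its variation between classes is read. Lama4 per Lama2 was 12.2 in endothelial-like cells (7.87 to 14.8) and 0.113 in myogenic-like cells (0.0996 to 0.135). Without the endothelial-like parts that carried FAP markers, the endothelial-like ratio was 68.2 (43.3 to 82.1). Lamb2 per Lamb1 was 0.024 in glial-like, 0.030 in myogenic-like, 0.099 in FAP-like and 0.969 in chondrocyte-like cells. Leaving aside macrophage-like and mast-like cells, Lamc1 per Lamb1 ran from 0.801 in FAP-like to 2.42 in chondrocyte-like cells, and was 1.03 in myogenic-like and 1.26 in glial-like cells. Nid2 per Nid1 ran from 0.056 in tenocyte-like to 1.70 in macrophage-like cells.

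**Figure D3:**
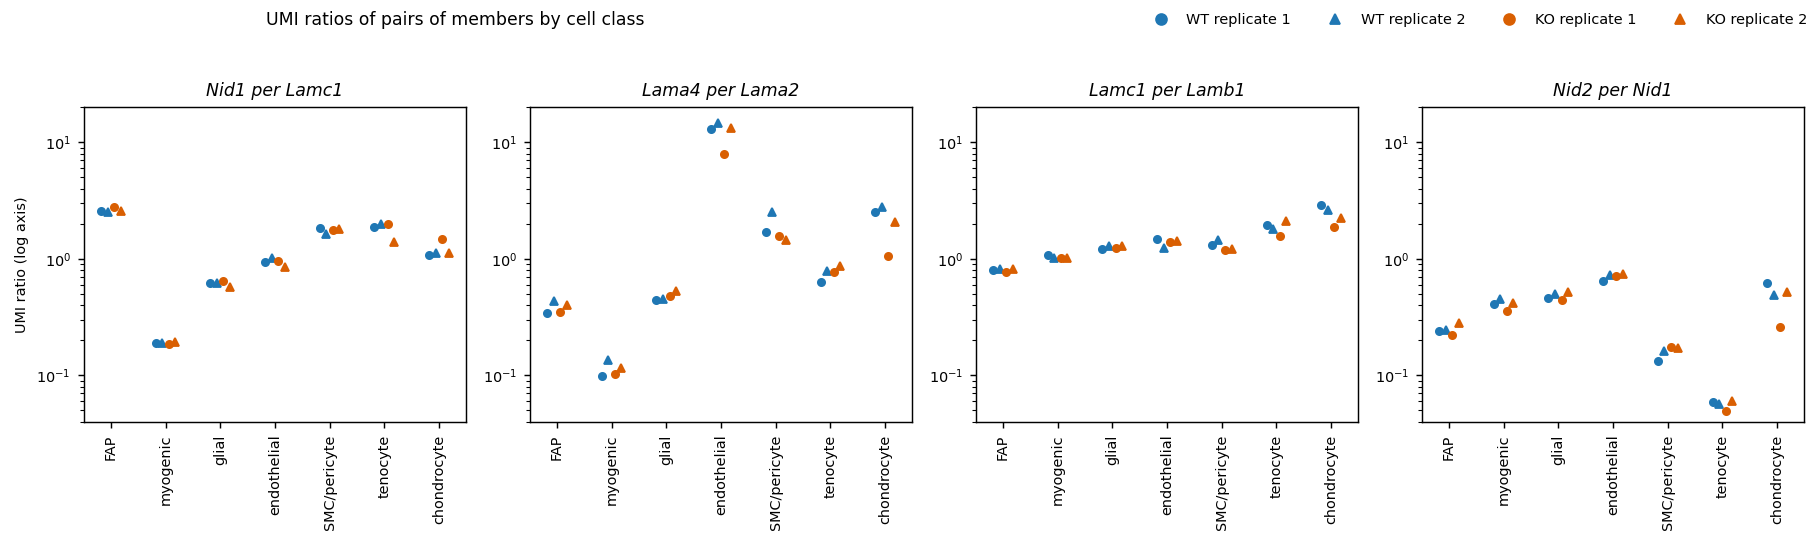
UMIs of 1 gene per UMI of another (log axis) in 7 cell classes for Nid1 per Lamc1, Lama4 per Lama2, Lamc1 per Lamb1 and Nid2 per Nid1. Points are libraries. Nid1 per Lamc1 lay between 2.52 and 2.77 in FAP-like cells and between 0.187 and 0.193 in myogenic-like cells, while Lamc1 per Lamb1 stayed within a few-fold across classes.

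Across the 9 classes, Lamb1 and Lamc1 had the patterns most like each other among 12152 genes with at least 10 CPM in a class (Pearson r of log2 level 0.969, n = 9 classes, each a mean of the same 4 libraries). The genes nearest to the others were Matn2 for Lama2 (0.96), Smim10l1 for Lama4 (0.986), Uqcrc2 for Lama5 (0.973), Tmlhe for Lamb2 (0.981), Nipa1 for Nid1 (0.972) and Uaca for Nid2 (0.949). Among the members themselves, Lama4 was like both Nid1 (0.894) and Lamc1 (0.892), and Lama5 had values near 0 with Lama2 (−0.04) and Nid2 (−0.08). With 9 points these values describe only the order and spacing of the classes.

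Among the kept cells, FAP-like cells held the most UMIs of Lama2, Lama4, Lamb1, Lamb2, Lamc1, Nid1 and Nid2, but 3.54% of those of Lama5. They were split into 4 clusters with unlike levels. The cluster led by Dipk1c (8758 cells) had Lama2 at 605 ± 84.5 and Nid2 at 175 ± 13.9, and the cluster led by Wnt2 (6914 cells), which carried Ly6a and Pi16, had 286 ± 53.1 and 53.3 ± 2.87. Lamb1 averaged 312 in the former and 154 in the latter, Lamc1 246 and 128, and Lama4 214 and 120. Nid1 differed less, at 569 and 460. Over the whole FAP-like class WT1 and KO1 stood above WT2 and KO2 for Lama2, Lamb1, Lamc1 and Nid1, so the 2 libraries of each genotype lay apart by more than the genotypes did.

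Of the myogenic-like cells, 3236 were placed as progenitors, 1575 as myoblasts and 80 as myotubes by stage markers, and the 1838 cells of a cluster led by Esco2, Aurkb and Kif11, genes of dividing cells, had no stage and are not in these values. Most chains were higher in progenitors than in myoblasts. Lama2 was 562, 470, 516 and 470 in progenitors of WT1, WT2, KO1 and KO2, and 198, 181, 157 and 198 in myoblasts. Lamb1 averaged 219 in progenitors and 86.2 in myoblasts, Lamc1 238 and 68.9, Lama4 61.6 and 14, and Nid1 49.5 and 7.31. No library overlapped between these 2 stages for any of these 5 genes. Lama5 differed less between the stages, at 58.2 ± 4.75 in progenitors and 43.2 ± 4.05 in myoblasts. Myotubes, of which only 11 to 31 cells were kept in each library, had Lama2 at 110, 68.2, 117 and 133, and Lama5, Lamb1, Lamc1 and Nid1 were at 0 in at least 1 library there. Whole muscle fibres cannot enter a droplet, so these few cells do not stand for the fibres of the tissue.

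**Figure D4:**
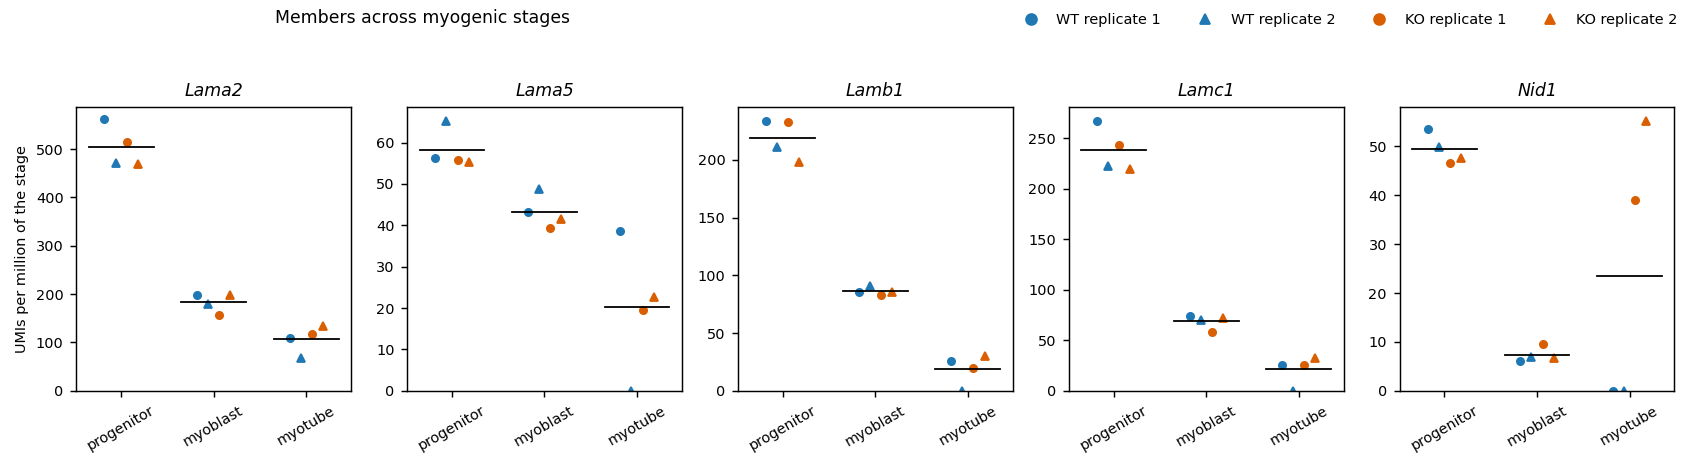
Levels of Lama2, Lama5, Lamb1, Lamc1 and Nid1 in myogenic progenitors, myoblasts and myotubes, in CPM, here per 1000000 UMIs of the stage. Points are libraries and black lines their means. Lamb1 averaged 219, 86.2 and 18.9 in the 3 stages, and Lama5 58.2, 43.2 and 20.2.

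The comparison of KO with WT asked whether loss of SYISL altered these transcripts in any cell class. For each class, the UMIs of a library were added up and compared by edgeR's quasi-likelihood test with Benjamini-Hochberg adjustment over all genes of the class, with 2 libraries per genotype, so a p-value measures only the spread between these libraries. Of the 10 genes, 5 (mast-like) to 9 passed the filter on low counts in a class. None passed an adjusted p of 0.05 in any class, stage, in all kept cells or in the interaction. At an unadjusted p under 0.05 there were 7 of 72 gene and class pairs in the 9 classes (9.72%, 5 higher and 2 lower in KO), against 3.79% of the 115209 tests of all genes. The log2 fold change was under 0.5 in size in 67 of the 72. DESeq2 called none of the 10 genes either.

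Few genes of any kind were called. The percentage of all tested genes called at an adjusted p of 0.05 was 0 in FAP-like, myogenic-like, glial-like, macrophage-like, tenocyte-like and chondrocyte-like cells, in progenitors, myoblasts and myotubes, in all kept cells and in the interaction, 0.017 in endothelial-like cells, 0.0952 in smooth muscle or pericyte-like cells and 0.0982 in mast-like cells. At an unadjusted p under 0.05 the edgeR percentage was 2.93 in FAP-like, 3.79 in myogenic-like, 3.63 in endothelial-like, 3.73 in glial-like, 5.36 in smooth muscle or pericyte-like, 4.23 in macrophage-like, 6.86 in mast-like, 3.07 in tenocyte-like and 2.32 in chondrocyte-like cells. It was 4.22 in progenitors, 3.66 in myoblasts, 8.5 in myotubes, 4.71 in all kept cells and 3.13 for the interaction of KO with class. DESeq2 called 10 genes in FAP-like cells, 2 in macrophage-like cells, 1 in tenocyte-like cells, 51 in all kept cells and 3 in the interaction, and 0 in the other 6 comparisons in which edgeR called 0. In those 11 comparisons 193 (myotubes) to 961 (all kept cells) genes had an unadjusted edgeR p under 0.05.

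For most chains, KO and WT levels lay close together in the class where the chain was highest. Lama4 in glial-like cells had a log2 fold change (KO over WT) of −0.04 with an SE of 0.09, Lamb1 −0.07 with 0.08, Lamc1 −0.06 with 0.09 and Nid2 −0.10 with 0.10. Nid1 in FAP-like cells had 0.02 with an SE of 0.15, Lama5 in myogenic-like cells −0.14 with 0.09, and Lamb2 in chondrocyte-like cells −0.04 with 0.16. Lama1 in tenocyte-like cells, with 65 UMIs there, was poorly measured, at 0.43 with an SE of 0.47.

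Lama2 in glial-like cells was farther from 0, at −0.23 with an SE of 0.10 (unadjusted p under 0.05, edgeR adjusted p = 0.997), and both KO libraries (1261 and 1107) lay below both WT libraries (1368 and 1430). Lamb1 and Lamc1 were placed in the same way, making 3 of 9 tested members, where 17.3% of all genes in glial-like cells had both KO libraries below. The part of the class with little Lama2, led by Syt1, held 83 of 550 glial-like cells in WT1, 65 of 426 in WT2, 89 of 457 in KO1 and 77 of 397 in KO2, and the Lama2-rich part held 62, 42, 27 and 31. The role of these counts in the class value was not tested. With parts that held markers of another class left out, the log2 fold change was −0.25 with an SE of 0.10 (adjusted p = 0.999).

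Within myogenic-like cells, Lama2 had a log2 fold change of −0.07 with an SE of 0.09, Lamb1 −0.00 with 0.09, Lamc1 −0.05 with 0.10, Nid1 −0.04 with 0.10 and Nid2 −0.19 with 0.12. Lama1 had 0.18 with an SE of 0.40. The 4 genes with both KO libraries below both WT libraries were Lama4 (−0.15, SE 0.09), Lama5, Lamb2 (−0.36, SE 0.17, edgeR adjusted p = 0.966) and Nid2, of 9 tested, where the share over all genes was 23.3%. In FAP-like cells the values were −0.08 (SE 0.19) for Lama2, −0.11 (SE 0.09) for Lama4, −0.03 (SE 0.14) for Lamb1, −0.05 (SE 0.12) for Lamc1 and 0.06 (SE 0.11) for Nid2. Lama1 had 0.23 (SE 0.33), Lama5 0.04 (SE 0.25) and Lamb2 −0.06 (SE 0.10) there. No member of 9 tested had its genotypes apart. Of all 18380 genes tested in FAP-like cells, 4029 had both KO libraries below both WT libraries and 1672 had both above. In all kept cells Lama2 had −0.10 (SE 0.18), Lama4 −0.14 (SE 0.08), Lama5 0.05 (SE 0.08), Lamb2 −0.13 (SE 0.06), Nid1 0.00 (SE 0.15) and Lamc3, which was fitted in no single class, −0.56 (SE 0.61). Lama1 had 0.00 (SE 0.22), Lamb1 −0.02 (SE 0.14), Lamc1 −0.07 (SE 0.12) and Nid2 0.01 (SE 0.08) in these cells. The median over the members was −0.03 in FAP-like, −0.07 in myogenic-like and −0.09 in glial-like cells. The median over all tested genes was −0.00, 0.00 and −0.00 in these classes. Elsewhere the member median was −0.03 in endothelial-like and in smooth muscle or pericyte-like cells and −0.27 in macrophage-like cells. It was 0.10 in tenocyte-like, 0.21 in chondrocyte-like and 0.39 in mast-like cells.

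**Figure D5:**
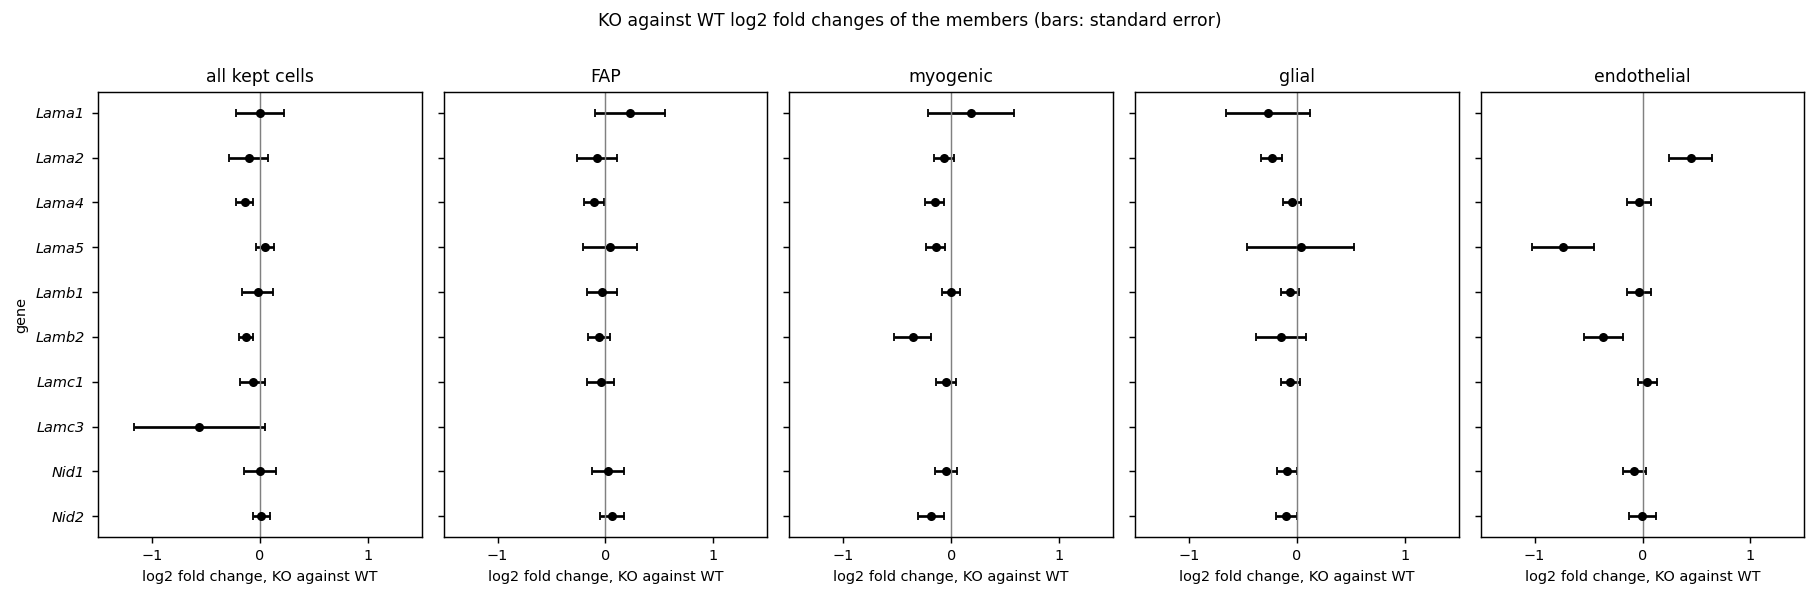
Log2 fold change of KO over WT with its SE (bars) for each tested member in all kept cells and in FAP-like, myogenic-like, glial-like and endothelial-like cells, from edgeR with 2 libraries per genotype. The vertical line marks no difference. Most estimates lie within 0.25 of it, and none passed the adjusted threshold.

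The remaining pairs with an unadjusted p under 0.05 were picked out after their values were seen, and they lay in classes where the level was low or a few cells carried it. Lama2 had a log2 fold change of 0.37 (SE 0.15) in smooth muscle or pericyte-like cells and 0.45 (SE 0.20) in endothelial-like cells, with edgeR adjusted p values of 0.849 and 0.999. Without the parts that carried FAP markers these were −0.11 (SE 0.18) and 0.37 (SE 0.41). The FAP marker Lum moved with the former, at 20.4 in WT1, 16.0 in WT2, 80.4 in KO1 and 59.4 in KO2, as did Dcn at 101, 53.4, 244 and 168. In endothelial-like cells the FAP transcript Col1a1 was at 440, 334, 531 and 822 and the myogenic transcript Myog at 2.88, 1.80, 23.2 and 31.9, while Dcn was at 119, 84.5, 121 and 109. The part of these transcripts in the Lama2 values of the class was not tested beyond leaving out those parts.

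Lama5 in endothelial-like cells had −0.73 (SE 0.29, edgeR adjusted p = 0.999), with WT1 at 19.9, WT2 at 13.2, KO1 at 8.13 and KO2 at 11.8, and −0.83 (SE 0.29) without the mixed parts. In the arterial part, where its level was highest, WT1 had 74.3, WT2 51.6, KO1 32.5 and KO2 43.4. Arterial cells numbered 57 of 307 endothelial-like cells in WT1, 45 of 321 in WT2, 54 of 386 in KO1 and 44 of 328 in KO2. The role of these counts in the class value was not tested. The genotypes did not overlap, with 2 libraries each, and the difference did not pass adjustment over 11775 genes. Of those genes, 1971 had both KO libraries below both WT libraries in endothelial-like cells, and 1613 had both above.

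Chondrocyte-like Lama2 had 0.74 (SE 0.26) and Lamb1 0.49 (SE 0.20), with KO1 farthest from the rest, and KO1 held 172 chondrocyte-like cells against 387, 705 and 1025 in WT1, WT2 and KO2. Lama2 there read 101 in KO1 and 50.4 in KO2, and 40.9 and 42.4 in the WT libraries. Its edgeR adjusted p was 1.00, and it passed the threshold only with no gene filter (adjusted p = 0.00514) and without KO replicate 2 (adjusted p = 0.0420). Nid1 in mast-like cells had 1.33 (SE 0.46, adjusted p = 0.555), from values of 21.7, 8.32, 44.3 and 31.6 in 59 to 85 cells, and Dcn in the same cells was 24.6, 47.1, 216 and 194. The part of FAP transcripts in this result was not tested.

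For Nid2 the log2 fold change in myogenic-like cells minus that in FAP-like cells was −0.26 (SE 0.11, edgeR adjusted p = 1.00), with an unadjusted p under 0.05, and the other 9 members had an unadjusted p above 0.05 in that interaction.

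No other gene listed for the basement membrane passed the adjusted edgeR threshold with all 4 libraries. Lama3, picked out after its values were seen, had a log2 fold change of −0.87 (SE 0.22) in tenocyte-like cells and −0.32 (SE 0.13) in smooth muscle or pericyte-like cells, both with an unadjusted p under 0.05 and neither passing the adjustment by edgeR. Of 105 gene and class tests of basement membrane partners, which include the collagen IV chains, perlecan (Hspg2) and Sparc, 3 were higher and 2 lower in KO at an unadjusted p under 0.05 (4.76%, against 3.79% of the tests of all genes). Laminin receptors, which include dystroglycan (Dag1) and the integrin subunits Itga6 and Itga7, had 1 higher and 1 lower of 49 (4.08%). The enzymes that build the laminin-binding sugar of dystroglycan had 0 higher and 2 lower of 109 (1.83%). The lowest edgeR adjusted p among these 3 lists in the 9 classes was 0.170, for Sparc in mast-like cells (log2 fold change 1.15, SE 0.20). Sparc in that class was called by DESeq2 (adjusted p = 0.00473), which called 22 of 7129 genes there. It also passed in edgeR fits without WT replicate 1 (log2 fold change 1.43) or without WT replicate 2 (0.90). The FAP marker Dcn in mast-like cells was 24.6 in WT1, 47.1 in WT2, 216 in KO1 and 194 in KO2. The part of FAP transcripts in the Sparc values was not tested. Col4a1 and Npnt also passed in edgeR fits that left out 1 library, Col4a1 in endothelial-like cells without KO replicate 1 (adjusted p = 0.0156) and in mast-like cells without WT replicate 2 (adjusted p = 0.0231), and Npnt in endothelial-like cells without KO replicate 2 (adjusted p = 0.0305) and in myotubes without WT replicate 1 (adjusted p = 0.0308).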

How the data were processed

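UMI counts per gene and cell, unnormalized, were deposited by the authors for each of the 4 libraries, which they had made with the Chromium 3′ v3 chemistry and Cell Ranger 7.2.0 on mm10 per the study's methods and the submitters' processing notes. Whether intronic reads were counted was not given in the sources used here. Antisense or opposite-strand genes overlap Lama2, Lamc3, Nid1 and Nid2.

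The study's limits on cells were applied (1000 to 6000 genes, 1000 to 25000 UMIs, mitochondrial share under 8%). No doublets were removed. Scrublet, run per library, marked 1.65% to 2.48% of kept cells, and their removal was an alternative. Counts were scaled to 10000 per cell and logged. Leiden clustering (resolution 0.3, 20 neighbours, 30 components, 3000 variable genes, the 10 members left out) was run with scanpy 1.11.5, and clusters with at least 3 listed markers of a class at 2 times the level of the other cells were named "-like". FAP-like clusters were named instead where no other class qualified and at least 3 FAP markers reached 25% of their highest cluster mean (they had 9 to 11 of 12), so shares may differ from the study's. Shares of cells with a UMI used cells thinned to 2000 UMIs.

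UMIs were summed per library and class (at least 50 cells in every library; the myogenic stages were tested at any number) and tested with edgeR 4.0.16 (R 4.3.3, TMM, filterByExpr), or DESeq2 1.42.0 as an alternative. The self-test used simulated counts, whose spread need not match that of each gene. Its changes were planted in many genes at once, all above a minimum level. Under these conditions it recovered 100% of 2-fold changes in myogenic-like and FAP-like cells and 96% in glial-like cells. In the interaction it recovered only 35.5%, so that fit can miss such changes. These figures do not cover smaller changes, and most changes of the members were smaller. Nor do they cover members at a low level, such as Lama5 at 0.804 CPM in FAP-like cells. Members, marker lists and gene lists were chosen with earlier results of these data known. Every member was named; fold changes were named for the member's highest class, myogenic-like, FAP-like and all kept cells, and for any member or list gene past the threshold. Other fold changes given were chosen after their values were seen. Library totals of kept cells ran from 93728519 to 108962643 UMIs, and their number of replicates, 2 per genotype, limits the precision. Sequences were read from the GRCm38 reference by GENCODE annotation. One of the listed genes is not reported here.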

Additional observations from a re-analysis of the deposited data

How the results depend on the processing

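For the log2 fold changes of the members, 35 results were recomputed under 461 alternatives, and 454 kept their side of the threshold and did not turn. A turn was a change of sign, unless the main and the alternative value were both smaller than their SE. Some of the 454 thus changed sign near 0. The 7 that turned came from leaving out 1 library. In FAP-like cells the values ran from −0.31 (without WT replicate 2) to 0.20 (without WT replicate 1) for Lama2, −0.19 to 0.15 for Lamb1, −0.19 to 0.12 for Lamc1, −0.14 to 0.21 for Nid1 and −0.092 to 0.23 for Nid2, with the same libraries at the ends. In all kept cells they ran from −0.19 (without KO replicate 1) to 0.14 (without KO replicate 2) for Lamb1 and from −0.18 to 0.17 for Nid1. The cause was not tested. Elsewhere members passed the threshold when 1 library was left out, with Lama2 in smooth muscle or pericyte-like cells 0.65 (adjusted p = 0.0212) without WT replicate 1, and in mast-like cells Lama2 2.97 without WT replicate 1 but −1.30 without WT replicate 2, and Nid1 2.19 and Lamc1 1.31 without WT replicate 1. The class with the highest mean was the same in every setting for 9 members, and Lama1 was highest in glial-like cells under centring within library and the looser cell filter.

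Counts of genes called moved more. With DESeq2 they were 10 in FAP-like, 4 in endothelial-like, 2 in macrophage-like, 22 in mast-like and 1 in tenocyte-like cells, 51 in all kept cells and 3 in the interaction. With no gene filter they were 58 in endothelial-like, 59 in glial-like, 132 in smooth muscle or pericyte-like, 164 in macrophage-like, 0 in mast-like and 54 in chondrocyte-like cells, 28 in progenitors, 23 in myoblasts, 55 in myotubes and 33 in the interaction. With at least 10 UMIs in every library they were 0 in endothelial-like and 23 in smooth muscle or pericyte-like cells. The looser cell filter gave 0 in endothelial-like, 3 in glial-like, 4 in smooth muscle or pericyte-like and 0 in mast-like cells and 1 in myotubes, removal of Scrublet calls 4 in smooth muscle or pericyte-like and 3 in mast-like cells, centring 27 in smooth muscle or pericyte-like cells, and resolution 1 and RLE factors 1 each in the interaction. Leaving out the mixed parts, added after seeing the data, gave 0 in endothelial-like and 1 in smooth muscle or pericyte-like cells, and glial-like levels of 635 for Lama4 and 723 for Lamc1. Without the Scrublet calls the Lama4 level was 634.

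Leaving out each library in turn gave 0 to 7 called genes in FAP-like, 5 to 9 in myogenic-like, 5 to 145 in endothelial-like, 0 to 21 in glial-like, 33 to 114 in smooth muscle or pericyte-like, 11 to 47 in macrophage-like, 0 to 214 in mast-like, 0 to 62 in tenocyte-like and 0 to 10 in chondrocyte-like cells, 18 to 128 in progenitors, 10 to 28 in myoblasts, 20 to 86 in myotubes, 0 to 58 in all kept cells and 2 to 4 in the interaction. The lone library of a genotype was then assumed to vary like the other genotype's.

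The replicate numbers only name the libraries, since the study describes the fetuses as littermates but ties no number to a litter, fetus or day, and there were 2 pairs. Deviations of same-numbered libraries correlated from −0.06 in myotubes to 0.36 in all kept cells over genes. With a replicate block, 54 genes were called in myogenic-like, 14 in endothelial-like, 63 in glial-like, 128 in smooth muscle or pericyte-like, 11 in macrophage-like, 0 in mast-like, 12 in tenocyte-like and 3 in chondrocyte-like cells and 8 in progenitors, and no member in 98 tests (lowest adjusted p 0.116).

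Shares of cells with a UMI depend on depth. Thinned to 1000 UMIs and not thinned, they were 60.0% and 90.4% for Lama2, 42.8% and 95.9% for Lama4, 40.9% and 93.6% for Lamb1, 49.1% and 97.8% for Lamc1 and 18.1% and 82.8% for Nid2 in glial-like cells, 4.90% and 37.0% for Lama5 in myogenic-like cells, 3.57% and 26.2% for Lamb2 in chondrocyte-like cells and 36.8% and 93.7% for Nid1 in FAP-like cells.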
